A study of Mus musculus with 24 samples.

Results

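The genes described here are 47 that copy DNA or drive entry into S phase, the stretch of the cell cycle in which the chromosomes are duplicated. They were chosen by name from textbook knowledge of the replication machinery, but with earlier results of these data known. Each was represented by the brightest of its probes on the array, which gave 47 of the 21154 mouse genes that could be named on it. Thymocytes are the developing T cells of the thymus. They were taken from male and female C57BL/6J mice aged 4 to 5 weeks, each thymus dispersed and passed through a mesh, without sorting of the cells. Control mice were not irradiated, low dose mice received 0.075 Gy of X-rays, high dose mice received 1.75 Gy of γ-rays, and mice of the radio-adaptive response (RAR) group received 0.075 Gy of X-rays and, 6 h later, 1.75 Gy of γ-rays. Each of the 8 groups of sex and treatment had 3 independent samples, which gave 24 arrays. The time from the last exposure to the isolation of the cells is not given in the sources used here. Each array measured thymocyte RNA in the Cy5 channel against a common reference, a pool of mouse RNA, in the Cy3 channel, and the value used throughout is the log2 ratio of Cy5 over Cy3. No dyes were swapped, and a ratio against the reference does not rank one gene above another.

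DNA replication starts where the origin recognition complex, with Cdc6 and Cdt1, loads the MCM helicase onto DNA in G1 phase. At the start of S phase Cdc45 and the GINS complex switch the helicase on, primase and DNA polymerase alpha lay down primers, and DNA polymerases delta and epsilon extend them, held to the template by the sliding clamp PCNA. Many of these genes are transcribed in late G1 by the E2F factors, which cyclin E kinases release from the retinoblastoma proteins, and in the thymus most such cycling occurs among immature thymocytes before they come to rest at the double-positive stage. TRP53, the transcription factor that ionizing radiation activates, induces Cdkn1a, an inhibitor of the cyclin-dependent kinases.

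Markers of the labelled cell type were detected, but detection cannot single that cell type out. On the 6 control arrays all 8 genes of a mature T cell list and 11 of 12 myeloid genes also cleared background. All 11 genes of a double-positive thymocyte list, among them Rag1, Cd4 and Cd8a, gave a Cy5 signal clear of background on each of the 24 arrays. Among the 47 replication genes 40 did so too. Cdc6, Cdc45, Orc2 and Tyms missed that mark on 1 array each, Pola2 on 2 and Orc1 on 5, and Ccne2 reached it on only 1 array. On the 6 control arrays, 19 of the 47 genes stood above the reference on every array, 15 stood below it on every array, and 13 lay on both sides.

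Promoter sequences were at hand for 38 of the 47 genes, in 46 windows of 300 bases that run from 250 bases before a gene's start to 50 after it. The E2F letters TTTCCCGC, TTTCGCGC, TTTGCCGC or TTTGGCGC, read on both strands and allowed to overlap each other, occurred in 15 of these 46 windows (32.6%), against 2.26% of all 32851 promoter windows searched. Under the stricter pair TTTCCCGC and TTTGGCGC the count was 12 of 46 (26.1%), against 1.56% of all. A CCAAT box (CCAAT on either strand) stood in 28 of the 46 windows (60.9%), against 37.4% of all, and TTTGAA, the cell cycle homology region of many mitotic promoters, in 6 (13.0%), against 17.9% of all. The windows of 15 mitosis genes, of which 14 were found, held the E2F letters in 1 (7.14%), the CCAAT box in 12 (85.7%) and TTTGAA in 9 (64.3%). The 6 windows below are printed because they pair genes that fell after irradiation with genes that did not. The first 4 belong to genes that fell in low dose, high dose and RAR in the mean of both sexes, and the last 2 to genes with the same kind of letters that did not fall. They are RefSeq sequences on build GRCm38.p6, written along the gene's own strand, with the E2F letters in capitals.
Cdc6, chr11:98907901-98908200, plus strand: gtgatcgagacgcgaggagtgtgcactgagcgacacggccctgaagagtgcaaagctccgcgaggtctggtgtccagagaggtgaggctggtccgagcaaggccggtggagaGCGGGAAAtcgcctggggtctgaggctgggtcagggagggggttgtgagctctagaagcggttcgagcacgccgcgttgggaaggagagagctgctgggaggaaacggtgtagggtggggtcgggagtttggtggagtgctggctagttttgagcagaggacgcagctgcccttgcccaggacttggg
Orc1, chr4:108579204-108579503, plus strand: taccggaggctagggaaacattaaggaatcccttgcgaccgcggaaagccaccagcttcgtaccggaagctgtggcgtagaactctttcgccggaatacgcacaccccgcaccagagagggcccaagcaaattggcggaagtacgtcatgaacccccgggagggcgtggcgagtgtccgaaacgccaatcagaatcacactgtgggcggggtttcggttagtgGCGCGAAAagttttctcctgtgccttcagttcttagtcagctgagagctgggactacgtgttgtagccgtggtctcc
Pola1, chrX:93632106-93632405, minus strand: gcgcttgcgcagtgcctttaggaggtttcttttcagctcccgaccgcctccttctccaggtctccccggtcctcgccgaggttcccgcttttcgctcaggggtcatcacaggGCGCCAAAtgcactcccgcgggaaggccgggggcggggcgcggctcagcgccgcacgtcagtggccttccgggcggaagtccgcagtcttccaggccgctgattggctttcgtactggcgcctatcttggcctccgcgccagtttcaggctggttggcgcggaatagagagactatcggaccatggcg
Mcm6, chr1:128359656-128359955, minus strand: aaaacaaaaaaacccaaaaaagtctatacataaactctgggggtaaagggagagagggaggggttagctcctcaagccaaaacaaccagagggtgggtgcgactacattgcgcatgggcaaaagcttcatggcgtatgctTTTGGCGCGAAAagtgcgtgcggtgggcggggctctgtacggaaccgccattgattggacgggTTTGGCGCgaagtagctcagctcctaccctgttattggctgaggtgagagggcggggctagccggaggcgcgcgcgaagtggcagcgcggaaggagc
Gins3, chr8:95633309-95633608, plus strand: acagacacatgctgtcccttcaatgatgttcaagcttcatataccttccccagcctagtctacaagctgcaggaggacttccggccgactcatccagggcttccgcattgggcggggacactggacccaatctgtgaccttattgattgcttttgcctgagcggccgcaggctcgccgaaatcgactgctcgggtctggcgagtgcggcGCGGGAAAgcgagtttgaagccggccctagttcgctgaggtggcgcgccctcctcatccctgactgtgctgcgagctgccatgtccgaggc
E2f2, chr4:136172024-136172323, plus strand: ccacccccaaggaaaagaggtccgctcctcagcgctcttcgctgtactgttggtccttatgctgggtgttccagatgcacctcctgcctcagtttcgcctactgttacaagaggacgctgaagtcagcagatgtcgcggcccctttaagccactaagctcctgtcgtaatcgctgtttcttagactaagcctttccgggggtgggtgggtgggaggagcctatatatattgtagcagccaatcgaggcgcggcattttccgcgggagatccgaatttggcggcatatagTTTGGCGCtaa
Counted from the gene's start, the motif of Cdc6 lay at -138 to -131 and that of Orc1 at -27 to -20. Mcm6 held 3 motifs, 2 of which overlapped. A match of letters is a description of the window and not a measured binding site.

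High dose was set against control as the mean of the female and male differences, 6 arrays against 6. Of the 47 genes, 29 fell and 0 rose at an adjusted p under 0.05 and at least 1.5-fold in limma, with p-values adjusted over all 55681 probes. Over those probes 11.5% passed, 5.89% as higher and 5.63% as lower. The median difference of the 47 genes was -0.70 on the log2 scale, against -0.05 over all named genes. For 42 of the 47 genes all 6 high dose arrays lay below all 6 controls, as they did for 8.98% of all probes. In bulk RNA of this kind fewer cycling cells and less RNA of these genes per cell cannot be told apart.

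Low dose and RAR were set against the same 6 control arrays, so the 3 comparisons are not independent of each other. Low dose gave 27 genes that fell and 0 that rose, where 9.92% of all probes passed, 5.09% as higher and 4.83% as lower. The median of the 47 genes was -0.67, and 37 of them had all 6 low dose arrays below all 6 controls, against 8.39% of all probes. RAR against control gave 41 genes that fell and 0 that rose, where 26% of all probes passed, 12.4% as higher and 13.7% as lower. Here the median was -1.15, and 44 of the 47 genes had all 6 RAR arrays below all 6 controls, against 14.9% of all probes. The 6 genes that did not pass in RAR were Tyms, Tk1, Rpa2, Gins3, E2f2 and Ccne2. An exact two-sided permutation test of the 6 arrays against 6 gave its smallest possible p, 0.00216, for 43 of the 47 genes at high dose, 38 at low dose and 44 in RAR. That p needs groups that do not overlap in either direction, which held for 14.4%, 13.2% and 24.9% of all probes.

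**Figure D1:**
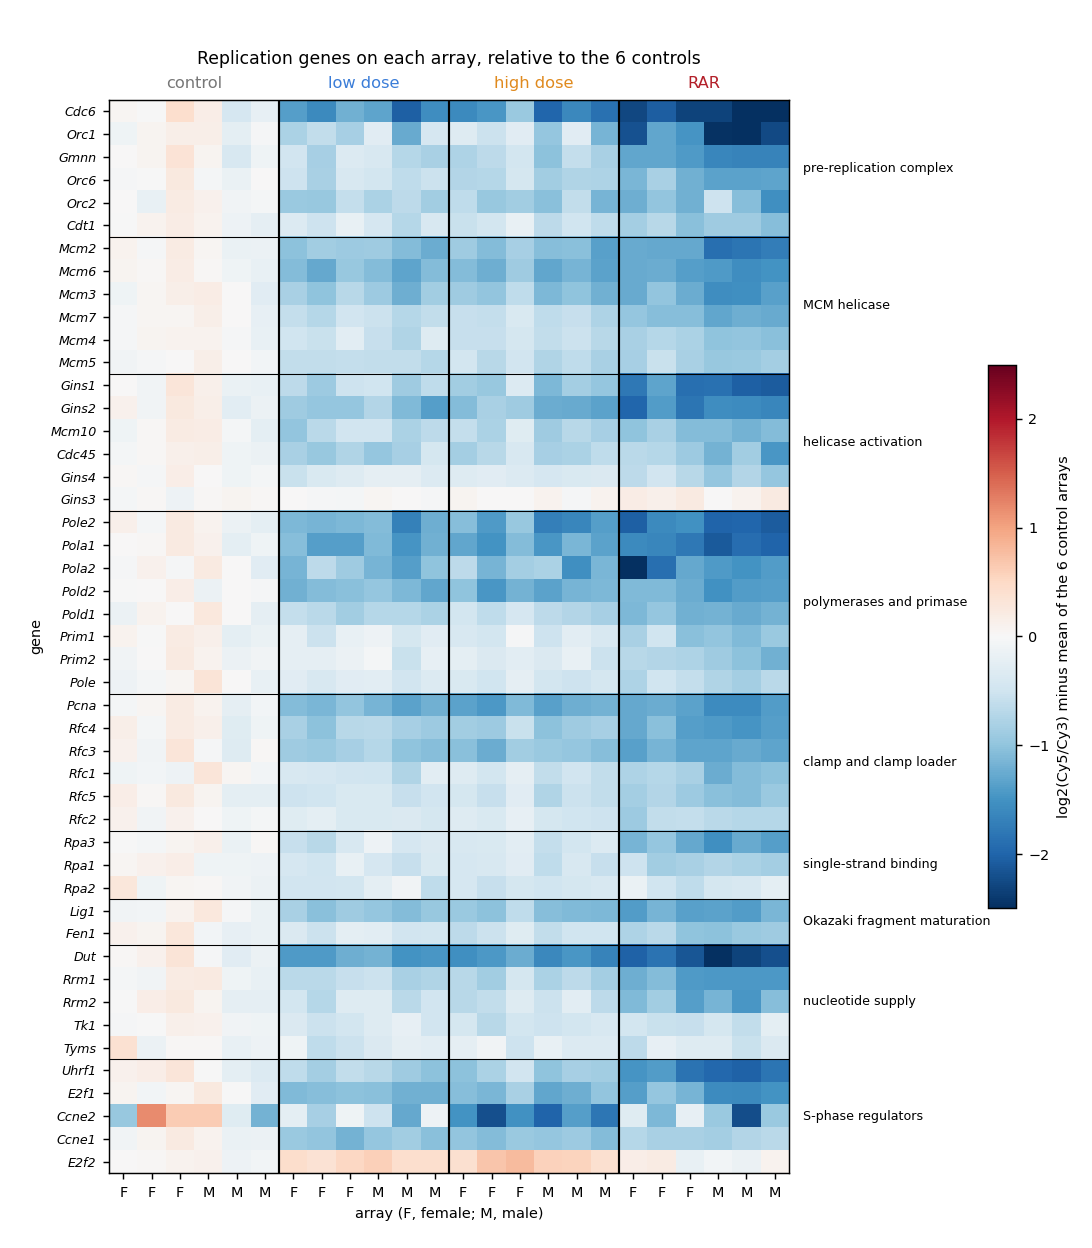
Each row is a gene, grouped by role, and each column an array, with 3 females and then 3 males in each treatment. Colour gives the log2 ratio minus the mean of the 6 control arrays of that gene, with values past the ends of the scale in the end colour. Blue, below the controls, covers nearly all rows at low and high dose and is deepest in RAR, where the median of the 47 genes on an array lay between -1.27 and -0.97.

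The median of the 47 genes, each relative to its own control mean, ran from -0.76 to -0.53 over the 6 low dose arrays, from -0.83 to -0.44 over the high dose arrays and from -1.27 to -0.97 over the RAR arrays. The RAR arrays thus lay below every singly irradiated array and the low and high dose arrays overlapped. The controls ran from -0.15 to 0.19.

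All 6 genes listed for the licensing of origins, among them its inhibitor Gmnn, fell in RAR, 5 at high dose and 4 at low dose. Cdc6, the loader that recruits the MCM helicase to origins, had log2 ratios from 0.02 to 0.85 (median 0.45) on the control arrays, from -1.61 to -0.77 (median -1.02) at low dose, from -1.55 to -0.50 (median -1.17) at high dose and from -2.31 to -1.64 (median -1.88) in RAR. No irradiated array reached the controls, and all RAR arrays lay below all singly irradiated ones. The fall was 2.85-fold at low dose (log2 difference -1.51, SE 0.15, adjusted p = 7.55e-07), 2.97-fold at high dose (-1.57, SE 0.15, adjusted p = 3.78e-07) and 5.18-fold in RAR (-2.37, SE 0.15, adjusted p = 5.72e-10). Another Cdc6 probe gave -1.29, -1.26 and -2.47.

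Orc1, the largest subunit of the origin recognition complex, ran from -0.84 to -0.45 (median -0.59) in controls, from -1.87 to -0.90 (median -1.31) at low dose, from -1.76 to -0.88 (median -1.04) at high dose and from -3.42 to -1.90 (median -2.82) in RAR. At high dose its fall was at the edge of the fold threshold (log2 difference -0.59, SE 0.19, adjusted p = 0.0272), and taken in each sex alone it passed at neither single dose. In RAR its signal cleared background on 1 of 3 female arrays and 0 of 3 male arrays, so for male RAR only a bound can be given. Against male RAR, the male control level was at least 3.31-fold higher (adjusted p = 9.15e-07), the female control level at least 2.88-fold higher and the male high dose level at least 2.47-fold higher.

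Gmnn encodes geminin, which holds Cdt1 inactive after origins have fired. It ran from -0.02 to 0.74 in controls, from -0.45 to 0.05 at low dose, from -0.65 to -0.07 at high dose and from -1.29 to -0.91 in RAR. The low dose arrays overlapped the controls and the RAR arrays overlapped no other group. Gmnn fell 1.51-fold at low dose, 1.65-fold at high dose and 2.82-fold in RAR (log2 difference -1.50, SE 0.11, adjusted p = 4.95e-09). Cdt1, Orc2 and Orc6, the remaining licensing genes listed, had RAR differences of -0.90, -1.08 and -1.19, all past the threshold. Cdt1 did not pass at low dose (-0.43) or high dose (-0.50).

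All 6 subunits of the MCM helicase, which unwinds the template, fell in RAR, and 5 of the 6 fell at each single dose, Mcm4 being the exception (-0.50 at low and -0.57 at high dose). Mcm2 ran from 0.11 to 0.48 (median 0.28) in controls, from -0.97 to -0.60 (median -0.70) at low dose, from -1.08 to -0.57 (median -0.78) at high dose and from -1.61 to -0.99 (median -1.24) in RAR. Its fall was 2.01-fold, 2.07-fold and 2.92-fold (adjusted p = 5.57e-08, 2.55e-08 and 4.76e-11). The RAR differences of the other 5 subunits were -0.82 for Mcm5, -0.89 for Mcm4, -1.14 for Mcm7, -1.32 for Mcm3 and -1.39 for Mcm6.

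The factors that switch the helicase on did not move as a block. Gins1, a subunit of the GINS complex, ran from -0.03 to 0.47 in controls, from -0.75 to -0.33 at low dose, from -0.96 to -0.17 at high dose and from -1.91 to -1.16 in RAR, so that RAR overlapped no other group. It fell 1.60-fold, 1.80-fold and 3.56-fold (adjusted p = 6.48e-04, 6.81e-05 and 2.13e-09). Gins2 fell by 1.00, 1.10 and 1.66 on the log2 scale, and Gins4 passed in RAR only (-0.75, with -0.34 and -0.35 at the single doses). Gins3, the remaining subunit of the same complex, ran from -0.74 to -0.55 in controls, from -0.66 to -0.58 at low dose, from -0.66 to -0.53 at high dose and from -0.62 to -0.39 in RAR. These groups overlapped throughout, and the interval of its RAR difference (0.03 to 0.26) lay inside 1.5-fold. Cdc45 and Mcm10 passed in every irradiated group, with RAR differences of -0.97 and -1.04.

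Among the polymerases and primase all 8 genes fell in RAR and 5 of 8 at each single dose, the exceptions being Pole, Prim1 and Prim2. Pola1, the catalytic subunit of polymerase alpha, ran from -0.39 to 0.09 in controls, from -1.61 to -1.20 at low dose, from -1.63 to -1.23 at high dose and from -2.23 to -1.74 in RAR. The RAR arrays again lay below every other array, and the falls were 2.41-fold, 2.47-fold and 3.58-fold (adjusted p = 4.07e-08, 2.15e-08 and 6.92e-11). Pole2, the second subunit of polymerase epsilon, fell 2.35-fold, 2.57-fold and 3.65-fold. Pold2, the small subunit of polymerase delta, had nearly its whole difference at the single doses, with -1.12 at low dose, -1.21 at high dose and -1.29 in RAR. A dim additional Pole probe, well above background on 2 arrays, pointed the other way in RAR (0.83 against -0.69).

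Pcna, the sliding clamp, ran from 0.81 to 1.25 (median 1.05) in controls, from -0.29 to 0.06 (median -0.10) at low dose, from -0.39 to -0.05 (median -0.23) at high dose and from -0.53 to -0.19 (median -0.32) in RAR. All 18 irradiated arrays lay below all controls, and the RAR arrays overlapped both single doses. The fall was 2.21-fold, 2.41-fold and 2.64-fold (adjusted p = 8.60e-09, 1.82e-09 and 1.23e-10). All 5 subunits of the clamp loader fell in RAR, from -0.71 for Rfc2 to -1.33 for Rfc4, and Rfc3 and Rfc4 also fell at both single doses in the mean of both sexes. In single sexes Rfc1 fell in males at both doses (1.52-fold at low and 1.60-fold at high dose) and Rfc5 in females at low dose (1.53-fold). For neither did the F-test of the sex by treatment interaction pass (adjusted p = 0.744 and 0.867).

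The single-strand binding complex that coats unwound DNA split by subunit. Rpa3 ran from 0.87 to 1.17 in controls, from 0.35 to 0.91 at low dose, from 0.44 to 0.78 at high dose and from -0.50 to 0.08 in RAR. It did not pass at the single doses (1.34-fold and 1.33-fold) and fell 2.40-fold in RAR (adjusted p = 1.22e-09). Rpa1 fell in RAR (-0.76), and Rpa2 had almost the same value in the 3 irradiated groups (-0.40, -0.46 and -0.40), none past 1.5-fold. Lig1 and Fen1, the ligase and nuclease that join the fragments of the lagging strand, fell in RAR by 1.30 and 0.88 on the log2 scale, and of these Lig1 also fell at both single doses.

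Among the genes that supply nucleotides, Dut, which removes dUTP so that uracil is not built into DNA, ran from 0.48 to 1.08 (median 0.76) in controls, from -0.74 to -0.41 (median -0.65) at low dose, from -0.90 to -0.48 (median -0.73) at high dose and from -1.73 to -1.08 (median -1.40) in RAR. None of these ranges overlapped except low with high dose, and the falls were 2.57-fold, 2.81-fold and 4.49-fold (adjusted p = 5.09e-09, 1.27e-09 and 2.56e-12). Rrm1 and Rrm2 form ribonucleotide reductase, which makes deoxyribonucleotides. Rrm2 ran from 0.29 to 0.77 in controls, from -0.20 to 0.21 at low dose, from -0.17 to 0.26 at high dose and from -0.93 to -0.35 in RAR. In the mean of both sexes its difference was 1.41-fold and 1.43-fold at the single doses, short of the threshold, and 2.25-fold in RAR (adjusted p = 1.34e-07). In females alone Rrm2 passed at low dose (1.55-fold) and high dose (1.60-fold), and in males at neither (1.28-fold at both). The F-test of its sex by treatment interaction did not pass (adjusted p = 0.898), so no sex difference is drawn from this. Rrm1 fell in all 3 groups (-0.67, -0.72 and -1.34). Tyms and Tk1, which make and salvage thymidylate, stayed within 1.5-fold in their estimates in all 3 groups, at -0.36, -0.28 and -0.41 for Tyms and -0.39, -0.50 and -0.48 for Tk1.

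Of the regulators of S-phase entry, E2f1 ran from -1.54 to -1.01 (median -1.23) in controls, from -2.45 to -2.28 (median -2.33) at low dose, from -2.55 to -2.07 (median -2.35) at high dose and from -2.83 to -2.22 (median -2.68) in RAR, and its falls were 2.16-fold, 2.13-fold and 2.57-fold (adjusted p = 1.13e-07, 1.08e-07 and 1.60e-09). E2f2, its close relative, was the only gene of the 47 whose arrays at either single dose all lay above the controls. It ran from 2.90 to 3.14 in controls, from 3.39 to 3.63 at low dose, from 3.43 to 3.82 at high dose and from 2.86 to 3.24 in RAR. All 12 singly irradiated arrays lay above all controls, at 1.38-fold and 1.48-fold in the mean of both sexes (adjusted p = 5.27e-04 and 5.71e-05), which is under the fold threshold, and RAR lay on the controls (0.01, SE 0.08).

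Ccne1, which encodes a cyclin that starts S phase, ran from -0.10 to 0.29 in controls, from -1.11 to -0.81 at low dose, from -1.01 to -0.84 at high dose and from -0.78 to -0.62 in RAR. All RAR arrays lay above all singly irradiated ones while still below all controls. Its fall was 1.99-fold at low dose, 1.99-fold at high dose and 1.70-fold in RAR (adjusted p = 9.99e-08), and RAR minus high dose was 0.23 (SE 0.07, adjusted p = 0.0306). With another probe of the gene the RAR difference was -0.13, against -0.76 here. Ccne2 ran from -1.06 to 1.31 in controls and from -2.07 to -1.25 at high dose. It passed the test at high dose, but its probe was well above background on a single male control array, so no fold is given. Under normexp the high dose difference was -0.14 and did not pass. Uhrf1, which helps carry DNA methylation to the new strand, ran from 0.63 to 1.28 (median 1.02) in controls, from -0.06 to 0.36 (median 0.19) at low dose, from -0.06 to 0.49 (median 0.11) at high dose and from -1.05 to -0.43 (median -0.86) in RAR. The single doses overlapped each other and RAR overlapped no other group. It fell 1.72-fold, 1.78-fold and 3.37-fold (adjusted p = 2.26e-05, 9.31e-06 and 3.14e-10).

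**Figure D2:**
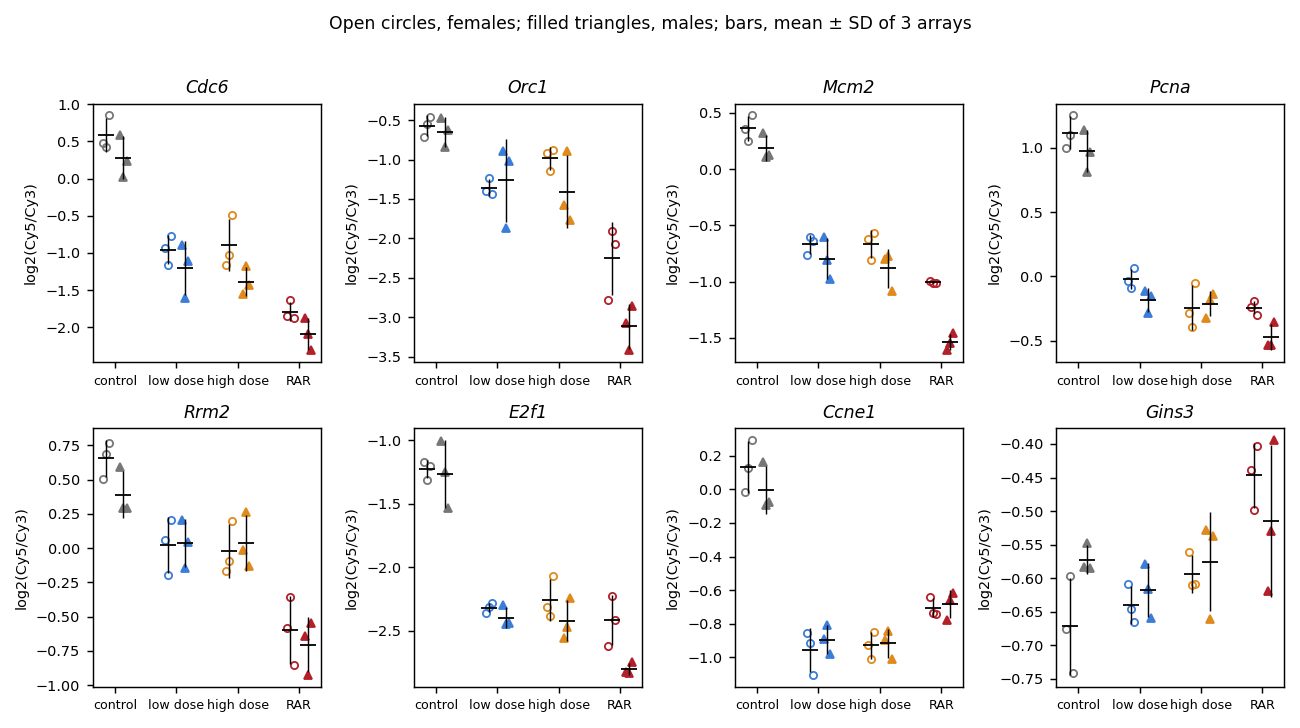
Each panel plots the log2 ratio of a gene on all 24 arrays by treatment, with open circles for females, filled triangles for males and bars for the mean and SD of 3 arrays. In Cdc6, Orc1 and Rrm2 the RAR arrays form a lower tier, in Pcna they overlap the single doses, in Ccne1 they lie above them (-0.78 to -0.62 against -1.11 to -0.81), and in Gins3 the vertical axis spans less than 1 log2 unit.

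**Figure D3:**
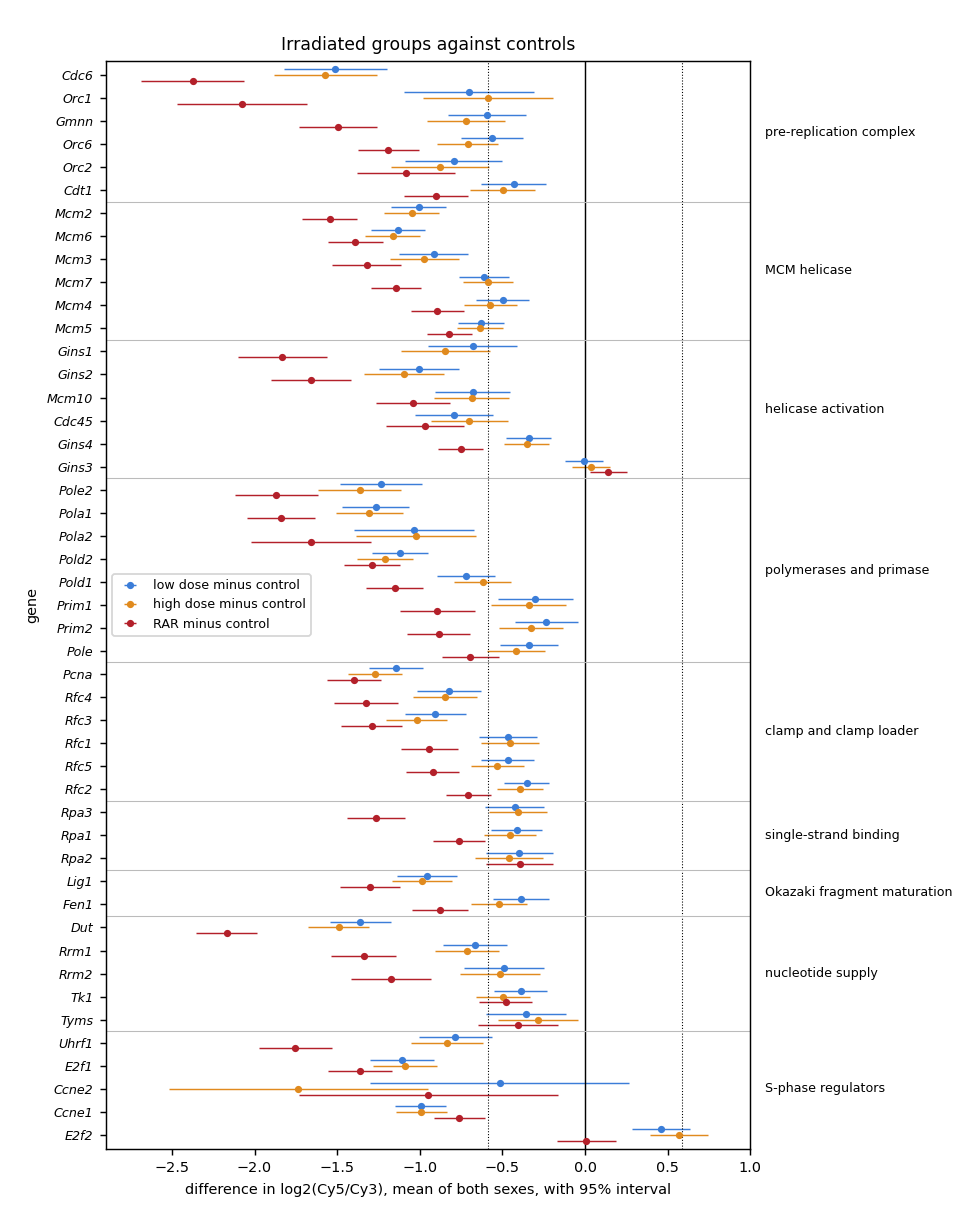
Points are the differences from control of low dose (blue), high dose (orange) and RAR (red) in log2 ratio, averaged over both sexes, with 95% intervals from limma, and dotted lines mark 1.5-fold. Blue and orange points nearly coincide on most rows, and red lies further left in all but a few, among them Ccne1, Gins3, Rpa2 and Tk1.

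High and low dose were also set against each other. In this comparison 0.00359% of all probes passed, and of the 47 genes 0 passed in limma. An unadjusted p under 0.05 was reached by 1 of them (Ccne2), against 6.81% of all probes. The median difference was -0.04, and for 46 of the 47 genes the 95% interval lay inside 1.5-fold in both directions, Ccne2 being the exception. For Pcna the difference was -0.13 (interval -0.29 to 0.04), for Mcm2 -0.04 (-0.21 to 0.13) and for Cdc6 -0.06 (-0.37 to 0.25). The doses differed 1.75 Gy to 0.075 Gy and also in the kind of radiation, which cannot be told apart here.

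RAR against high dose asked what the earlier priming dose added. Of all probes 9.52% passed, and of all named genes 6.67% passed as higher and 4.67% as lower. Of the 47 genes 10 were lower and 0 higher. These were Orc1, Gins1 (-0.99, SE 0.13, adjusted p = 2.96e-05), Uhrf1 (-0.92, SE 0.10, adjusted p = 7.60e-06), Rpa3 (-0.86), Cdc6 (-0.80), Gmnn (-0.78), Dut (-0.68), Rrm2 (-0.66), Pola2 (-0.64) and Rrm1 (-0.62). Of the remaining 37 genes 32 had negative estimates, and the median of all 47 was -0.40. For 23 of the 47 genes the 95% interval lay inside 1.5-fold in both directions. Among these were Pcna (-0.13, interval -0.29 to 0.03), Pold2 (-0.08, -0.25 to 0.09), Tk1 (0.02, -0.14 to 0.18) and Gins3 (0.10, -0.01 to 0.22). Under normexp background correction with loess the count fell to 3 of 47, Orc1 was -0.39 and Cdc6 -0.35, short of the fold threshold. RAR against low dose gave 15 genes lower and 0 higher, with a median of -0.45, and 6 under normexp. For 19 of the 47 genes the interval of that comparison lay inside 1.5-fold. There 9.07% of all probes passed, and of all named genes 6.38% passed as higher and 5.44% as lower. Both comparisons use the same RAR arrays.

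**Figure D4:**
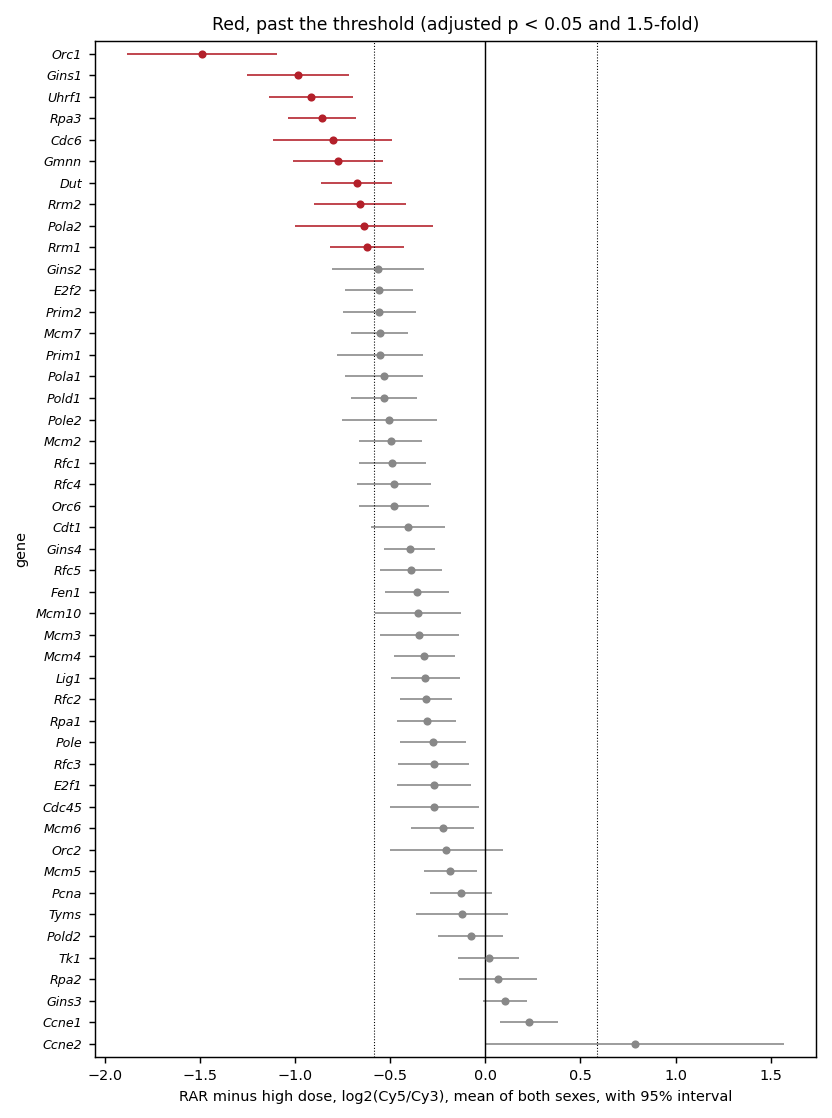
Genes are ordered by the difference of RAR minus high dose in log2 ratio, averaged over both sexes, with 95% intervals, and red marks genes past the threshold. The 10 red genes run down to Rrm1 (-0.62), the place of Orc1 at the top rests on RAR signals that mostly did not clear background, and 5 genes at the foot have estimates above 0.

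The arrays came on 3 slides. All female controls shared a slide and all female high dose arrays another, so no slide held both. Within the slide that held a control and high dose arrays (2 high dose and 1 control, all male), 46 of the 47 genes were lower at high dose, with a median of -0.86. On the same slide RAR minus control had a median of -1.29 (1 female and 1 male array against the male control). That female RAR array had 34.7% of spots well above background. Low dose minus control there was -0.92 (2 female and 1 male array against the same control). On the slide with 3 low dose and 5 control arrays low dose minus control was -0.52. RAR minus high dose had medians of -0.40 and -0.38 on the slides that held both. Apart from high dose against control, the sexes were not balanced in these comparisons, so their medians mix sex with treatment. With slide as a block 17 genes passed at high dose in females, in place of 28.

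Females and males were also taken apart, 3 arrays against 3. In females 27 genes fell and 1, E2f2 (1.51-fold, adjusted p = 2.33e-03), rose at high dose, where 7.89% of all probes passed, and 28 fell at low dose, where 8.77% passed. In males 28 fell at high dose (10.6% of probes passed) and 26 at low dose (6.65%), or 16 and 17 under quantile normalization. In RAR 40 fell in females (20.5% of probes) and 41 in males (24.6%). An exact permutation test of 3 arrays against 3 cannot go below p = 0.1.

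Male RAR was set directly against female RAR, the first sex contrast of the study. Of the 47 genes 0 passed in limma, where 0.438% of all probes did. An unadjusted p under 0.05 was reached by 16 of them, against 11.8% of all probes, and 39 had lower estimates in males. The median of the 47 differences was -0.19, but 0.00 under quantile normalization, so no direction is drawn from it. Mcm2 came nearest. Its RAR values were -0.99, -1.01 and -1.01 in females and -1.61, -1.55 and -1.46 in males, so the sexes did not overlap, and the difference was -0.53 (SE 0.11, adjusted p = 0.0413), or 1.45-fold. Set against the same sex difference in controls, 0 of the 47 genes passed (0% of probes), with 2 genes at an unadjusted p under 0.05, against 7.64% of all probes. Against that at high dose 0 passed (0.00359% of probes), with 1 gene unadjusted, against 4.76% of all probes. Against that at low dose 0 passed (0% of probes), with 5 genes unadjusted, against 7.09% of all probes. The F-test of the sex by treatment interaction passed for 0 genes (0.00359% of probes), with 3 genes unadjusted, against 6.49% of all probes. These were Rfc1, Gins4 and Rpa3, at adjusted p = 0.744, 0.744 and 0.765. The methods describe leaving out the expression value farthest from the average of its group. Read as 1 value per probe and group, that filter gave 23 of the 47 genes for the interaction, where 60.5% of all probes passed, and 2 for male against female RAR, where 18.7% passed. For that sex difference against control, high dose and low dose it gave 2, 3 and 3 genes, where 21.3%, 18.9% and 20.5% of probes passed. The intervals of the unfiltered sex differences were wide, with a median width of 0.37 on either side of a sex difference of RAR against control.

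A list of 48 other genes of replication gave 19 lower and 1 higher at high dose, 19 lower at low dose and 35 lower in RAR, with medians of -0.49, -0.48 and -0.87. Of all probes 5.63%, 4.83% and 13.7% passed as lower in these comparisons, and 5.89% as higher at high dose. The largest falls in RAR were those of Dna2 (-2.12, SE 0.17), a nuclease of lagging strand processing, Dscc1 (-2.10, SE 0.13), a subunit of an alternative clamp loader, and Esco2 (-1.76, SE 0.18), which joins sister chromatids as they are made. The gene that was higher at high dose was Ctc1 (0.60, SE 0.08), of the complex that finishes telomere replication.

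The 15 genes of mitosis did not follow the replication genes at the single doses. They gave 2 higher and 1 lower at high dose (median 0.28), 2 higher at low dose (median 0.32) and 5 lower in RAR (median -0.48). Over all probes 11.5%, 9.92% and 26% passed in these comparisons, and the mitosis counts at the single doses were not far from those shares. Mki67, the proliferation marker Ki-67, rose 1.75-fold at high dose and 1.52-fold at low dose, and in RAR its difference was 0.18 (SE 0.14, adjusted p = 0.360). Cdk1, the mitotic kinase, had differences of -0.02, 0.14 and -0.56, none past the threshold. RAR against high dose gave 13 of the 15 mitosis genes lower, with a median of -0.78, where 9.52% of all probes passed. On single arrays the median of the mitosis list lay between 0.05 and 0.50 at high dose, between 0.11 and 0.50 at low dose and between -0.80 and -0.16 in RAR. Whether the lists differ from each other was not tested.

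**Figure D5:**
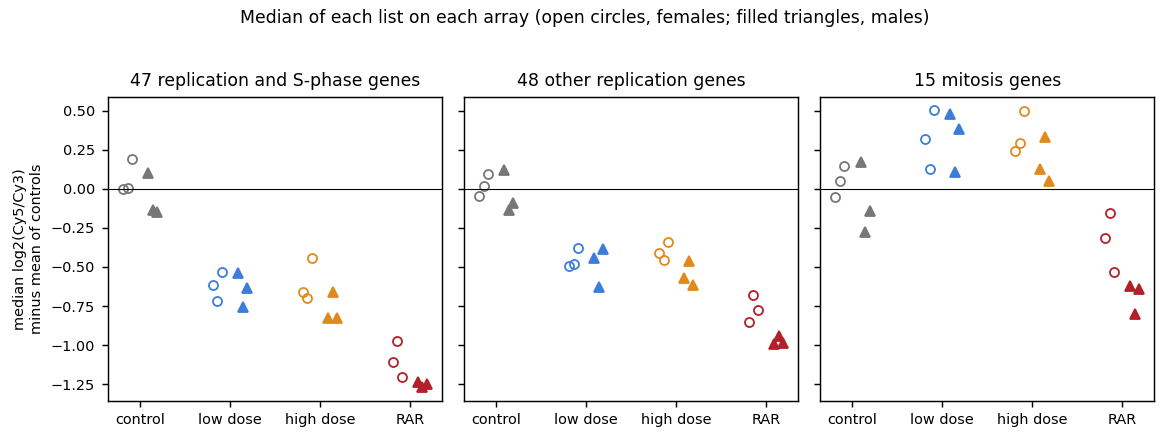
Each point is the median over a list, on 1 array, of the log2 ratio minus the mean of the 6 controls, for the 47 genes, 48 other replication genes and 15 mitosis genes. The 2 replication lists step down from control to single dose to RAR, whereas all 12 singly irradiated arrays lie above 0 for mitosis and all 6 RAR arrays lie below 0.

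The genes with E2F letters in at least 1 of their windows were 15 of the 38 with a promoter entry. Of these, E2f2, Lig1, Mcm7 and Uhrf1 also had a window without the letters, and a gene with more windows has more chances to match. In RAR 13 of these 15 fell, with a median of -1.30 and a range from -2.37 to 0.14, and 20 of the 23 without the letters fell, with a median of -1.08 and a range from -2.17 to -0.40. The 2 genes with the letters that did not fall were Gins3 and E2f2, whose windows with the letters are printed above. Dut, Pcna and E2f1, all of which fell, held none of the 4 spellings in their windows.

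Markers of other cells and of the radiation response were read over the same arrays. The shares of all probes that passed were 11.5% at high dose, 9.92% at low dose and 26% in RAR. Of 16 TRP53 targets 14 rose at high dose, 13 at low dose and 12 in RAR, and Cdkn1a rose 5.38-fold at low dose, 6.39-fold at high dose and 12.1-fold in RAR. In a myeloid list of 12 genes 5 rose at each single dose and 9 in RAR, and its summed Cy5 signal, in units of the array's 75th percentile, went from 127 to 209 in controls, 252 to 428 at low dose, 215 to 423 at high dose and 518 to 625 in RAR. The summed signal of the 11 double-positive genes went from 826 to 991 in controls, 741 to 953 at low dose, 741 to 893 at high dose and 439 to 629 in RAR, with 0 of the 11 past the threshold at the single doses and 3 higher and 2 lower in RAR. A sum is weighted to the brightest genes, and the median gene of this list did not fall. Relative to the control means that median ran from -0.14 to 0.15 on control arrays and from 0.01 to 0.31 on RAR arrays. In RAR 4 of 8 mature T cell genes rose, 2 of 7 double-negative genes fell and 1 rose, and 4 of 8 B cell genes fell and 1 rose. Counts of higher and lower in RAR were 1 and 1 of 7 for erythroid genes, 3 and 4 of 10 for thymic epithelium and 3 and 3 of 10 for stroma. The erythroid count lay near the share of all probes. The part of these shifts in the results above was not tested. The female RAR arrays had 53.9%, 71.8% and 34.7% of spots well above background in Cy5, against 49.3% to 62.8% on the other arrays, and without the last 2 of these 3 arrays the RAR count was again 41 genes lower.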

How the data were processed

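RNA of unsorted thymocytes (Cy5) was hybridised against Universal Mouse reference RNA (Cy3) on 24 Agilent 60K arrays, 3 per group of sex and treatment. Per the file headers the deposited intensity values were made by Feature Extraction 11.5.1.1 with mm9 annotation, background-subtracted and dye-normalized. The deposited table of log2 ratios, computed by the authors, matched log2 of red over green processed signal within 0.01 for all probes. Control spots and outlier flags were left out and spots of a probe averaged. Probes were named by accession through RefSeq GRCm38.p6 (28026 of 55681 probes). limma 3.58.1 in R 4.3.3 was fitted to 8 group means over all 55681 probes, with Benjamini-Hochberg adjustment and a threshold of adjusted p under 0.05 and 1.5-fold. The fit was tested on simulated data. The methods give 3 mice per group and name another Feature Extraction version. P-values measure the spread between these samples, and the number of arrays limits precision. "At least" folds compare Cy5 means with the lowest signal well above background. The 47 genes and all lists were chosen with earlier results of these data known. All 47 could be named, with full values for Pcna, Mcm2, Cdc6, Rrm2, Ccne1, Ccne2, E2f1 and the largest differences of each comparison, and genes added for their role were chosen after their values were seen. Alternatives covered background, normalization, channel, dim probes, slide, replicate number, outlying values, fold threshold, probe choice and single arrays, and values within slides were added after the data were seen. Unmatched table columns numbered 0.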

Additional observations from a re-analysis of the deposited data

How the results depend on the processing

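Additional probes of a gene aside, no alternative reversed the direction of a gene followed singly. Of the values compared, 646 kept their side of the threshold while 11 fell short of it. Under normexp these were Ccne2 at high dose (-0.14 in place of -1.73), Ccne1 in RAR (-0.58 in place of -0.76), Orc1 (-0.39 and -0.46), Cdc6 (-0.35 and -0.40) against high and low dose, and Rrm2 against high dose (-0.55). The others were Ccne2 with Cy5 alone (-1.02) and with slide as a block (-1.39), Cdc6 against low dose with slide as a block (-0.70), and Rrm2 against high dose without outlying values (-0.43). Not among these 11, another Ccne1 probe gave -0.13 in RAR in place of -0.76, short of the fold threshold. A dim additional Pole probe reversed the sign in RAR (0.83 against -0.69). With no minimum fold the counts of genes past the threshold were 45 at high dose, 43 at low dose, 37 for RAR against high dose, 38 for RAR against low dose and 1 for male against female RAR. An unadjusted p under 0.05 in limma was reached by 32.9% of all probes at high dose and 30.4% at low dose. For RAR against high and low dose the shares were 32.3% and 30.7%, and for male against female RAR 11.8%. Normexp with loess gave 3 for RAR against high dose and 6 for RAR against low dose. Quantile normalization gave 16 for RAR against high dose, 16 for high dose and 17 for low dose in males. Slide as a block gave 17 for high dose in females. Shares of all probes are not given for these normexp, quantile and slide counts, which show only how far a count moved. Leaving out the farthest value of each group gave 1 for high against low dose, 2 for male against female RAR, 2, 3 and 3 for that difference against control, high and low dose, and 23 for the interaction. The replicate numbers did not pair the samples (same-number correlations of deviations from -0.16 to 0.22, median -0.00), and with the replicate block the counts were 41 in RAR, 29 at high dose and 27 at low dose, with 25 in place of 26 for males at low dose. Leaving out 1 array at a time gave 41 to 42 genes in RAR, 27 to 30 at high dose, 25 to 28 at low dose, 9 to 13 for RAR against high dose, 12 to 16 for RAR against low dose, 0 to 0 for high against low dose and for every sex contrast and the interaction, 24 to 32 and 26 to 31 at high dose in females and males, 24 to 30 and 19 to 27 at low dose, and 40 to 43 and 41 to 42 in RAR. Cy5 alone shifted the median of all probes by 0.52 in RAR against control, where the 47 genes had a median of -1.36.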
